A study of Drosophila melanogaster with 6 samples.

Results

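Eye pigment genes of the fruit fly Drosophila melanogaster were followed in RNA of whole heads, from flies with a tim-MJD transgene and from wild type flies. The 9 genes considered make or move the 2 classes of eye pigment. They are the ommochrome genes v, cn, st and cd and the pterin genes Pu, pr, se, ry and bw, and a gene was followed through each probe set that the platform annotation assigns to it alone. This gave 9 probe sets of 8 genes, out of 13966 probe sets on the array that are not controls, which name 10844 genes. No probe set is listed for v alone in the annotation used here, so v was not analysed, and the same holds for w. Of the 9 probe sets 5 passed the filter on dim probe sets, each of another pterin gene, and 0 of the 3 ommochrome probe sets passed it.

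The tim-MJD group held 3 samples of heads from flies in which tim-GAL4 drove a UAS-MJD transgene. The timeless promoter of the driver is active in clock neurons and also in photoreceptors and glia. The transgene is named for Machado-Joseph disease, a polyglutamine disorder. A polyglutamine length of 78 is labelled for tim-MJD replicates 1 and 2, and none for replicate 3. The WT group held 3 samples of wild type heads, labelled as strain CS for replicates 1 and 3 and without a strain name for replicate 2. Flies of both groups were aged 2 to 4 days, had been kept in light-dark cycles for 3 days and were collected at Zeitgeber time 16. Neither group carried the driver or the transgene alone, so the effects of driver, transgene and strain background cannot be told apart. Nothing in the labels says that replicates were separate collections of flies. The p-values therefore measure the spread between these samples, which may be technical.

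The red-brown colour of the fly eye comes from both classes of pigment, which are stored in granules of pigment cells and, for ommochromes, of photoreceptors. Ommochromes are made from tryptophan through kynurenine. Pterins are made from the nucleotide GTP, and the same route also supplies tetrahydrobiopterin, the cofactor of the enzymes that make dopamine and serotonin. Pigment enzymes act mainly while the pupal eye develops, and adult heads also contain fat body, in which several of them are active.

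Values are given as intensity per probe set as deposited, and as normalized log2(intensity + 16), called the log2 level. Intensities are given before quantile normalization between arrays and log2 levels after it, which can change the order of close arrays, and overlap of the groups refers to log2 levels. The deposited scale has no stated origin. If the values are powers of e of a log2 summary, differences of bright probe sets are smaller, for example -0.96 in place of -1.32 for Pu, in the same direction. Median intensity per array lay between 27.2 and 31.5 in tim-MJD and between 26.2 and 30.7 in WT. A probe set that does not exceed the brightest of 23 negative controls on the same array is called at control level here, and 40.2% to 44.4% of probe sets per array exceeded it. The 3 arrays per group limit the precision. Arrays of each group were scanned on a day of their own, so the scan day cannot be told apart from the group. The eye was represented in both groups: the photoreceptor genes trp, trpl, inaD, inaC, Arr1, Arr2 and chp, 7 of 14 listed markers with a single-gene probe set, were above control level on every array. Their summed intensity was 496917 to 597743 in tim-MJD and 438854 to 586990 in WT, and their median log2 difference was 0.0087. That sum is mostly Arr1 and Arr2. The genes were not uniform: inaD, a scaffold protein of the light response, differed by -0.55 ± 0.16 without overlap, and inaC, an eye protein kinase C, by 0.75 ± 0.33 (SE, adjusted p = 0.187 and 0.37 in limma).

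The ommochrome genes were at control level on all arrays of both groups. The gene cn encodes kynurenine 3-monooxygenase, which makes 3-hydroxykynurenine, the ommochrome precursor. Its probe set 143103_at read 19.8, 19.1 and 23.2 in tim-MJD heads, against 18.1, 19.8 and 21.7 in WT heads. The highest negative control of the same arrays read 32.3, 31.9 and 39.1 in tim-MJD and 29.8, 32.7 and 35.2 in WT, so cn lay below it throughout. The gene st encodes an ABC transporter subunit that pairs with the product of w to carry ommochrome precursors into granules. Its probe set 153393_at read 23.2, 18.3 and 21.5 in tim-MJD heads, against 17.6, 19.1 and 22.1 in WT heads. The gene cd encodes a peroxidase-like protein needed late in ommochrome synthesis. Its probe set 150392_at read 21.1, 20.9 and 22.3 in tim-MJD heads, against 20.8, 21.9 and 30.7 in WT heads. The 3 genes thus gave no level above control in either group, and a difference between groups was not detectable for any of them. Their log2 levels differed by 0.011 for cn, 0.038 for st and -0.12 for cd (tim-MJD minus WT), without a test, since the 3 probe sets were left out as dim.

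**Figure D1:**
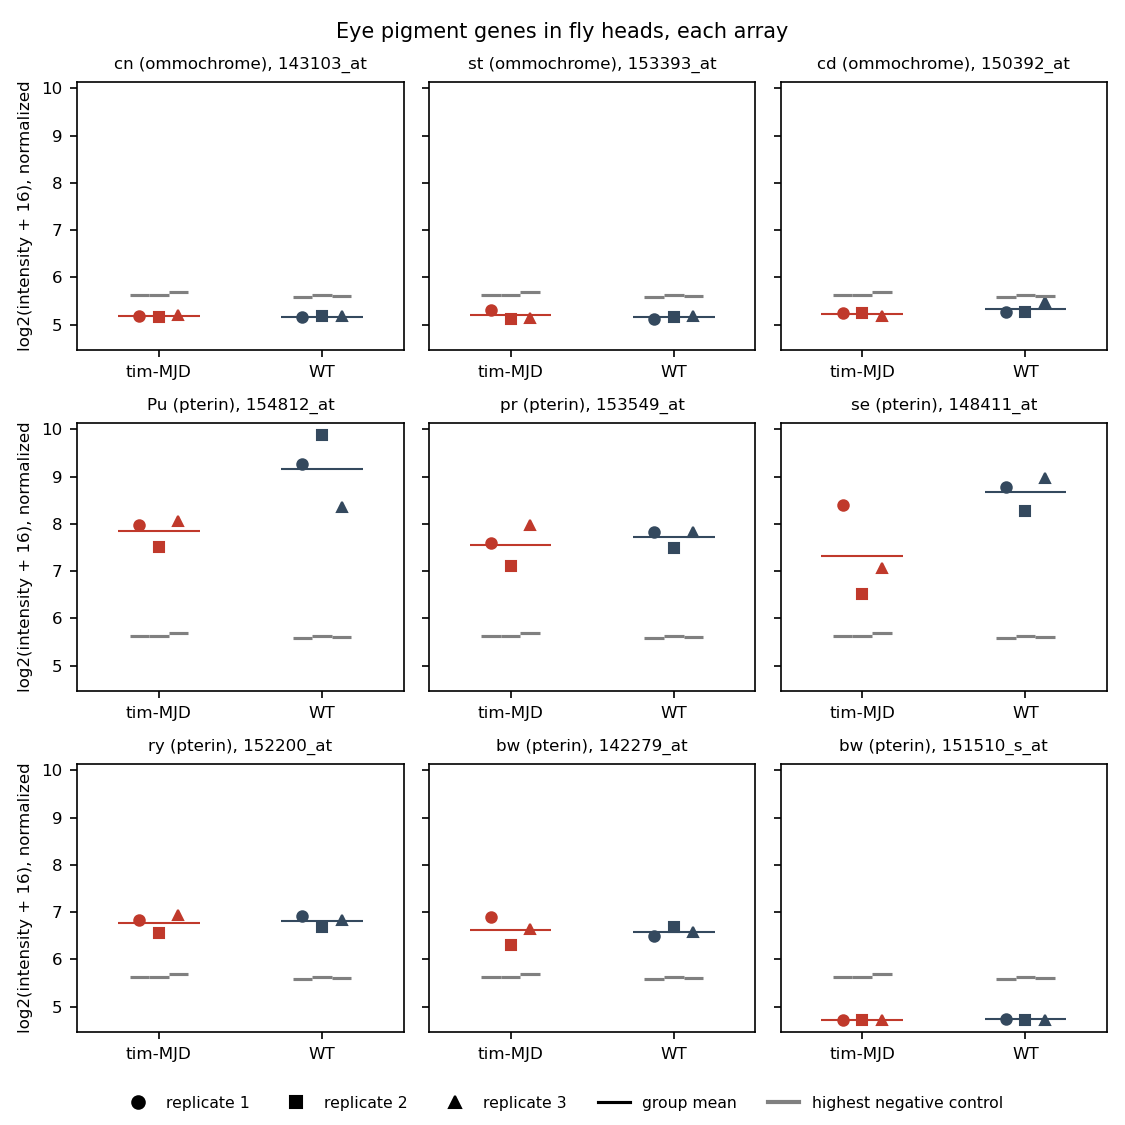
Normalized log2(intensity + 16) of each eye pigment probe set on each array, with tim-MJD left of WT. Symbols are replicates, coloured lines are group means, and grey bars are the highest negative control of that array. The cn, st and cd panels and the second bw probe set lie under the grey bars, and the other pterin probe sets lie above them.

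The pterin genes were above control level on every array, through 1 probe set each. None of the 5 passed the threshold of an adjusted p of 0.05 in limma, against 2.48% of all 8379 probe sets tested. Pu and se had the largest differences of the 5, both lower in tim-MJD, while pr, ry and bw differed by less than the spread between arrays.

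Pu encodes GTP cyclohydrolase I, the entry enzyme of pterin and tetrahydrobiopterin synthesis. Its probe set 154812_at read 230.1, 169 and 211 in tim-MJD heads, against 715, 1081 and 295 in WT heads. All tim-MJD arrays were thus below all WT arrays, with WT replicate 3 the nearest to them, and 11.9% of all tested probe sets are separated in that direction. The mean log2 level was 7.85 ± 0.30 in tim-MJD and 9.17 ± 0.77 in WT (SD, n = 3 each). The difference was -1.32 ± 0.41 (SE), with a 95% interval of -2.35 to -0.28, an unadjusted p of 0.0214 and an adjusted p of 0.201 in limma. The difference was -0.96 without WT replicate 2 and -1.73 without WT replicate 3, the extremes when 1 array was left out (adjusted p 0.331 and 0.075). WT replicate 2, the array with the highest Pu level, also had the largest 3' to 5' difference of the eIF-4a control transcript, a sign of RNA quality, at 9.39 log2 units against 2.57 to 3.71 on the other arrays. That measure mostly marks WT replicate 2, so its use as a covariate is close to leaving that array out. With it the Pu difference was -0.88 (adjusted p = 0.484 in limma). The 18S ribosomal RNA signal was 12.7 and 12.0 log2 units on WT replicates 1 and 2, the highest arrays for Pu, and 16.7 to 17.4 on the others. That signal mostly marks WT replicates 1 and 2. Here and below, a fit with it thus rests mainly on WT replicate 3 against the tim-MJD arrays. Such a fit cannot tell the 18S signal apart from other traits of WT replicates 1 and 2. With the 18S signal as a covariate the Pu difference was -0.43 (adjusted p = 0.819 in limma), and that of se was -1.64 (0.57).

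The gene pr encodes 6-pyruvoyl-tetrahydropterin synthase, the second enzyme of the route. Its probe set 153549_at read 173, 121 and 197 in tim-MJD heads, against 238, 186 and 200 in WT heads. The groups overlap, with tim-MJD replicate 2 the lowest array. The difference in log2 level was -0.17 ± 0.24 (SE), with a 95% interval of -0.78 to 0.45 (adjusted p = 0.83 in limma), and it was 0.062 without tim-MJD replicate 2.

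The gene se encodes a glutathione transferase of the omega class that makes the precursor of the red drosopterins. Its probe set 148411_at read 316, 75.4 and 106 in tim-MJD heads, against 483, 344 and 440.1 in WT heads. In intensity, tim-MJD replicate 1 lay next to WT replicate 2 and the other tim-MJD arrays lay far below, and after normalization the groups overlap. The mean log2 level was 7.33 ± 0.97 in tim-MJD and 8.67 ± 0.36 in WT (SD, n = 3 each). The difference was -1.34 ± 0.51 (SE), with a 95% interval of -2.64 to -0.049, an unadjusted p of 0.0443 and an adjusted p of 0.304 in limma. It was -1.88 without tim-MJD replicate 1 (adjusted p = 0.0624) and -0.94 without tim-MJD replicate 2 (adjusted p = 0.551). Fluidics modules 1 and 2, which wash and stain the arrays, each held 1 array of each group. The se difference was 0.13 within module 1, between tim-MJD replicate 1 and WT replicate 2, and -2.45 within module 2, between tim-MJD replicate 2 and WT replicate 3. For Pu the same pairs gave -1.90 and -0.86.

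The gene ry encodes xanthine dehydrogenase, which oxidises purines and pterins and forms isoxanthopterin. Its probe set 152200_at read 95.8, 77.3 and 99.1 in tim-MJD heads, against 111, 91.2 and 96.8 in WT heads. The difference in log2 level was -0.037 ± 0.12 (SE), with a 95% interval of -0.35 to 0.27 (adjusted p = 0.945 in limma). The gene bw encodes the ABC transporter subunit that pairs with the product of w to carry pterins. Its probe set 142279_at read 101, 61.6 and 81.6 in tim-MJD heads, against 77.0, 90.8 and 79.2 in WT heads. The difference was 0.027 ± 0.17 (SE), with a 95% interval of -0.39 to 0.44 (adjusted p = 0.972 in limma). The groups overlap for both genes, and each interval leaves out changes as large as those measured for Pu and se. Within modules 1 and 2 ry differed by 0.15 and -0.29, and bw by 0.22 and -0.28. A second bw probe set, 151510_s_at, read 9.96 to 11.3 over all 6 arrays, at control level, so only 1 of the 2 bw probe sets measured the gene.

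Side by side, the ommochrome genes had a median difference of 0.011 over 3 genes, all at control level, and the pterin genes one of -0.17 over 5 genes, against -0.0026 over all 8379 probe sets tested. The 2 classes cannot be compared for a difference between groups, since the ommochrome probe sets measured none of their genes above control level. In the pterin class, 2 of 5 genes, Pu and se, had an unadjusted p under 0.05 in limma with a lower tim-MJD level. The share over all tested probe sets was 7.95%. The count was 0 with the fluidics module as a block, with the 3' to 5' or 18S covariate and without moderated variances. The module block compares the groups only within modules 1 and 2, so it has little power. It was also 0 without tim-MJD replicate 2 or without WT replicate 1, and 1 or 2 in the other fits. The median of the pterin class changed sign without tim-MJD replicate 2 (0.062), and it was 0.13 within module 1 and -0.74 within module 2.

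All 5 pterin genes had their lowest log2 level on tim-MJD replicate 2, as did 17.5% of all tested probe sets. That array also stood apart in fat body markers. Of 11 listed fat body markers 10 had a probe set, and their summed intensity was 45522 on tim-MJD replicate 2, up to 2186590 on the other tim-MJD arrays and 2260710 to 5458020 in WT. That sum is nearly all from Yp1, Yp2 and Yp3, the yolk protein genes, which are active in the female fat body, and the labels do not state how many flies were female. The other 7 markers summed to 44416, 7326 and 23941 in tim-MJD heads, against 402582, 164669 and 225374 in WT heads, without overlap. In WT most of that sum is Obp99b, an odorant binding protein gene. Obp99b read 8446, 794 and 3716 in tim-MJD heads, against 222594, 106918 and 181101 in WT heads. Lsp2, a larval serum protein gene, read 7658, 753 and 2316 in tim-MJD heads, against 91582, 16957 and 9606 in WT heads. The median log2 difference of the 10 markers was -2.36, 9 of 10 were negative and 9 of 10 were lowest on tim-MJD replicate 2. One of them fell, Obp99b, by 5.70 log2 units (adjusted p = 0.0478 in limma). It did not pass without tim-MJD replicate 3 or any 1 of the WT replicates (up to 0.143). It passed with 6 of 16 other settings. The markers Fbp1 and Fbp2, larval serum protein receptor and alcohol dehydrogenase-related fat body genes, were at control level on all arrays. Their part in the Pu and se values was not tested. In whole heads, fewer cells of a type and less RNA per cell cannot be told apart.

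Pdh, an alcohol dehydrogenase-like gene known from the pigment cells of the retina, was also lowest on tim-MJD replicate 2. Its probe set read 19627, 1533 and 7636 in tim-MJD heads, against 25621, 48954 and 39985 in WT heads, without overlap. The difference was -2.53 ± 0.97 (SE, adjusted p = 0.304 in limma), and it was -1.50 without tim-MJD replicate 2. The other listed pigment and cone cell markers differed by 0.11 for pinta, a retinoid-binding protein gene of pigment cells, by 0.26 for pros and by 0.019 for ct, which exceeded the control level on 1 of 3 tim-MJD and 0 of 3 WT arrays. Of the 4 listed markers with a probe set, out of 5, 1 was negative and none passed. Its summed intensity, which is nearly all Pdh, was 1984 to 20114 in tim-MJD and 26065 to 49436 in WT.

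**Figure D2:**
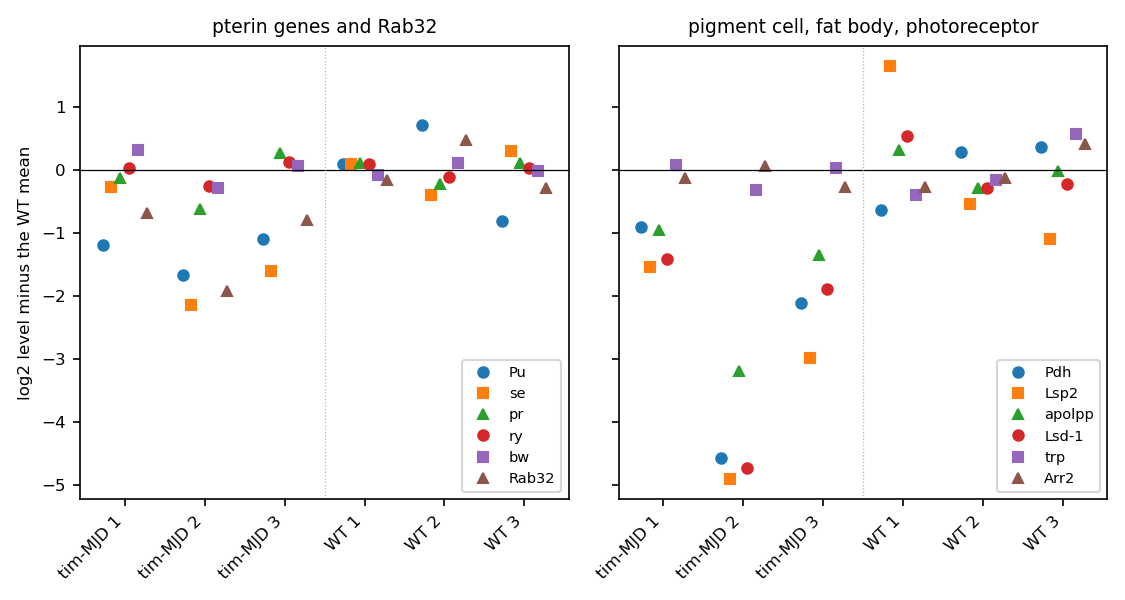
Difference of each array's log2 level from the WT mean of that gene, for the pterin genes and Rab32 (left) and for Pdh, the fat body markers Lsp2, apolpp and Lsd-1, and the photoreceptor genes trp and Arr2 (right). Each symbol is 1 gene on 1 array. Pu, se and Rab32 are lowest on tim-MJD replicate 2, as are Pdh and the fat body markers.

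Other genes of the kynurenine route, a list of 3, were also read. Kyat, a kynurenine aminotransferase that diverts kynurenine to kynurenic acid, read 82.7, 62.3 and 72.0 in tim-MJD heads, against 345, 282 and 120.0 in WT heads. All tim-MJD arrays were below all WT arrays, and the difference was -1.34 ± 0.32 (SE, adjusted p = 0.112 in limma). It passed without WT replicate 3 (-1.70, adjusted p = 0.0336), and was -1.07 without WT replicate 1. WT replicates 1 and 2, its highest arrays, are those with the low 18S signal, and with that signal as a covariate the difference was -0.63 (adjusted p = 0.438). KFase, the formamidase between v and cn, differed by -0.36 ± 0.17 (adjusted p = 0.427), and by -0.17 without tim-MJD replicate 2, the 1 array of the 6 on which it was at control level. The transporter-like gene kar, whose mutants have less ommochrome, differed by 0.15 ± 0.16 and exceeded the control level on 3 of 3 tim-MJD and 2 of 3 WT arrays. So 0 of 3 genes passed, and the median was -0.36.

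Other pterin and molybdenum cofactor genes were lower in 3 of 4 tested cases, and 0 passed. Pcd, which regenerates tetrahydrobiopterin during amino acid hydroxylation, read 128, 171 and 117 in tim-MJD heads, against 230.0, 229 and 191 in WT heads. The groups do not overlap, and the difference was -0.46 ± 0.11 (SE, adjusted p = 0.101 in limma). It passed without tim-MJD replicate 2 (-0.57, adjusted p = 0.0328). Sptr, sepiapterin reductase, which completes tetrahydrobiopterin, differed by -0.83 ± 0.44 (adjusted p = 0.466), and by 0.025 with the 18S ribosomal RNA signal as a covariate. DhpD, a dihydropterin deaminase, had a mean log2 level of 5.17 ± 0.29 in tim-MJD, with 0 of 3 arrays above the controls, and of 5.68 ± 0.10 in WT, where 2 of 3 arrays exceeded it. Clot, the gene cl, whose thioredoxin-like product is needed with se for drosopterins, differed by 0.036 ± 0.32. The cofactor sulfurase gene mal, on which xanthine dehydrogenase depends, was at control level on all arrays and was not tested. Of the nucleotide genes, ras, IMP dehydrogenase, differed by -0.38 ± 0.29, and bur, GMP synthetase, was at control level on all arrays.

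Of the enzymes that use the pterin cofactor, ple, tyrosine hydroxylase, read 220.1, 371 and 97.5 in tim-MJD heads, against 40.5, 32.7 and 12.4 in WT heads, where only 1 of 3 arrays exceeded the control level. All tim-MJD arrays were above all WT arrays, and the difference was 2.37 ± 0.51 (SE, adjusted p = 0.087 in limma). It passed when the lowest 60% of probe sets were left out (0.0465). With WT mostly at control level the size depends on the pseudocount, and it was 1.58 with a larger and 2.95 with a smaller one. Nos, nitric oxide synthase, exceeded the control level on 0 of 3 tim-MJD arrays and on 3 of 3 WT arrays, at mean log2 levels of 5.56 and 5.80.

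Genes of pigment granule formation, 12 in the list, gave 0 calls, with 8 positive and 4 negative differences and a median of 0.065. The list holds subunits of the AP-3 adaptor (g, rb, cm, or), of the HOPS complex (lt, car, dor, Vps16A) and further eye colour genes (p, ca, mv, Rab32). The largest difference was that of Rab32, the small GTPase gene also known as lightoid. It read 444, 184 and 349 in tim-MJD heads, against 782, 1234 and 558 in WT heads. The groups do not overlap, and the difference was -1.14 ± 0.40 (SE, adjusted p = 0.252 in limma). It was -0.75 without tim-MJD replicate 2, and -0.81 with the 18S signal as a covariate (adjusted p = 0.792). Differences of the other 11 genes lay between -0.096 for p and 0.40 for cm. Several of them were near control level, so their signs say little. Both car and dor exceeded it on 1 of 3 tim-MJD and 0 of 3 WT arrays, and p on 0 of 3 and 1 of 3. The genes rb, Vps16A and ca exceeded it on only some arrays.

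**Figure D3:**
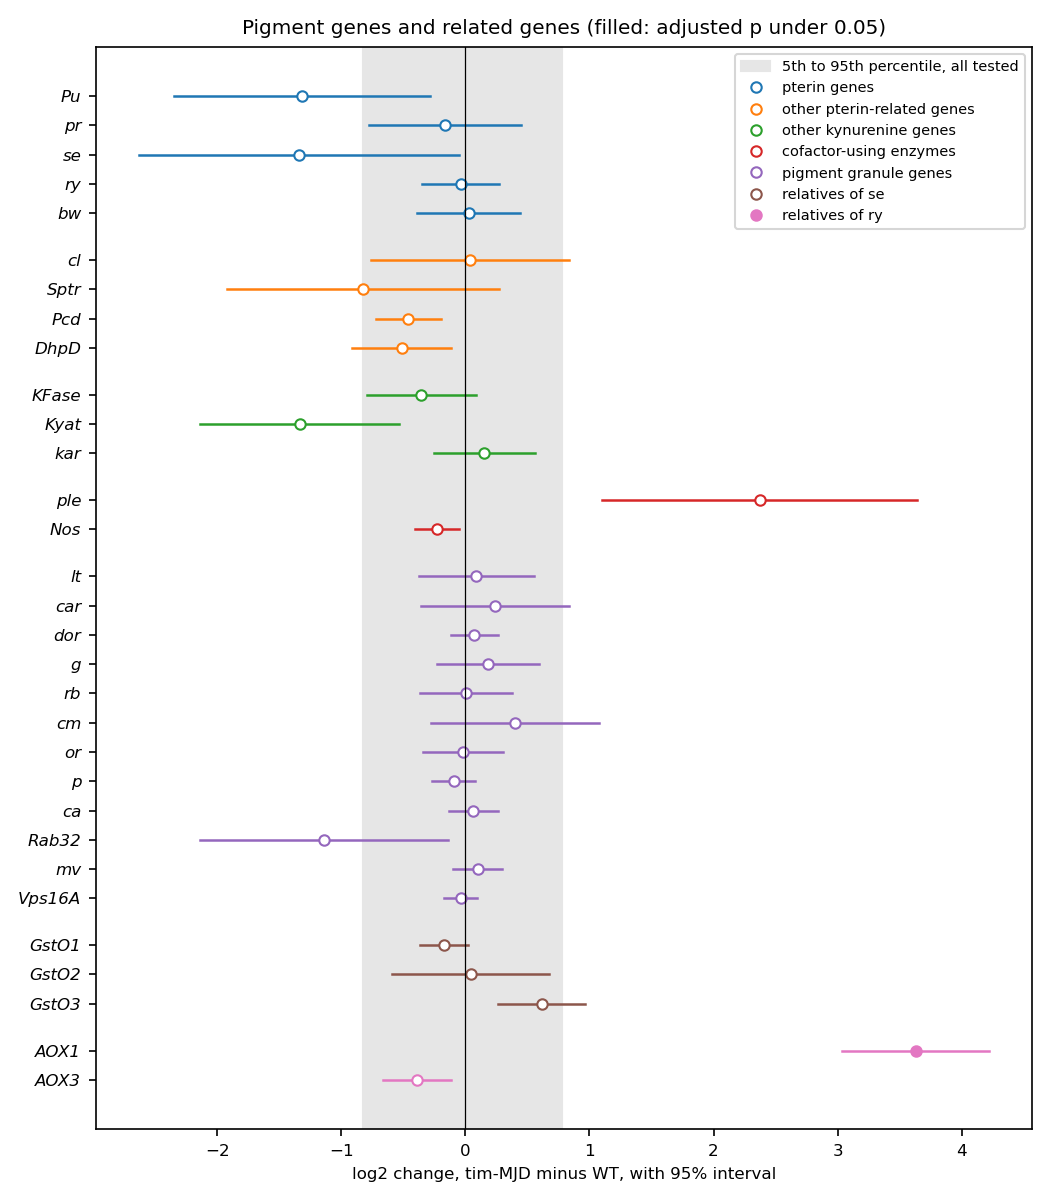
Difference in log2 level, tim-MJD minus WT, with its 95% interval, for the tested pterin genes and for the other pterin, kynurenine, cofactor-using and granule genes and the relatives of se and ry, each by its brightest probe set. The ABCG, nucleotide and marker lists are not plotted. Filled points passed an adjusted p of 0.05, and the grey band is the middle of all tested probe sets, from the 5th to the 95th percentile. Of the genes plotted, AOX1 at 3.63 has the only filled point. Pu, se, Kyat and Rab32 lie left of the band with open points, and ple at 2.37 lies right of it with an open point.

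Relatives of the members were read for comparison, since similar transcripts can bind the same probes. In the RefSeq gene table, se lies between GstO3 and GstO2, with GstO1 beyond GstO2, in 1 cluster of omega class glutathione transferase genes. GstO3 read 424, 479 and 419.6 in tim-MJD heads, against 333, 419.6 and 242 in WT heads. Its difference was 0.61 ± 0.14 (SE, adjusted p = 0.0984 in limma), without overlap after normalization and opposite in sign to that of its neighbour se. GstO2 differed by 0.041 ± 0.25 through its brightest of 3 probe sets and by -0.18 and -0.25 through the others. GstO1 exceeded the control level on 0 of 3 tim-MJD arrays and on 2 of 3 WT arrays.

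The aldehyde oxidase genes, relatives of ry that use the same molybdenum cofactor, form a cluster of their own. AOX1 read 3287, 4531 and 2137 in tim-MJD heads, against 346, 311 and 213 in WT heads. It rose by 3.63 ± 0.24 log2 units (SE, adjusted p = 0.00304 in limma), with a mean level of 11.76 ± 0.42 in tim-MJD against 8.12 ± 0.19 in WT (SD, n = 3 each). The call held whichever array was left out (adjusted p up to 0.0249), and it was lost with the fluidics module as a block (3.93, adjusted p = 0.257) and with the 18S covariate (3.88, adjusted p = 0.0514). Its neighbour AOX3 differed by -0.39 ± 0.11 (adjusted p = 0.163), with all tim-MJD arrays below all WT arrays. AOX2 and AOX4 were at control level on all arrays. While ry itself differed by -0.037, AOX1 was 1 of 2 tested genes of its cluster and the only 1 to pass. The share over all tested probe sets was 2.48%.

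**Figure D4:**
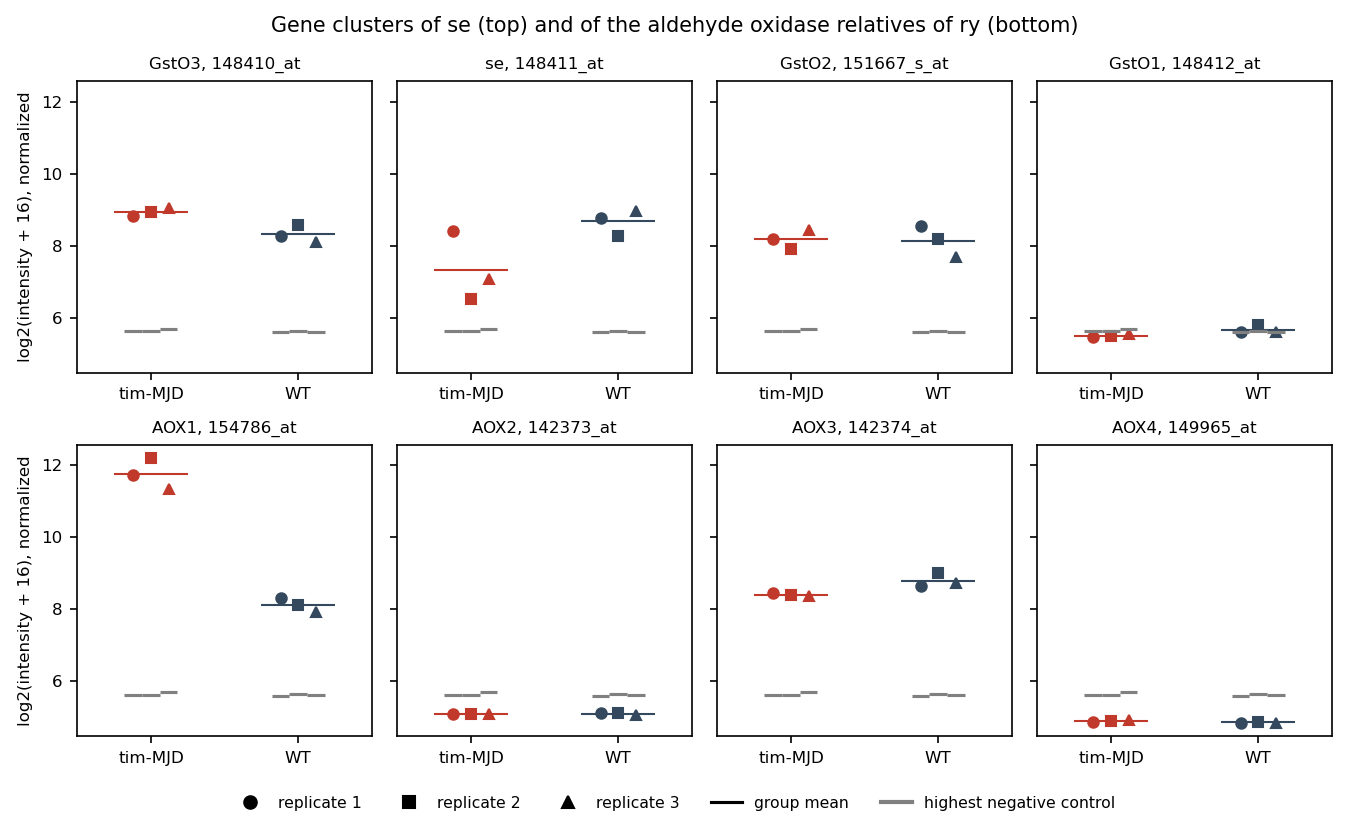
Normalized log2(intensity + 16) on each array for the se cluster in its gene order (top) and the aldehyde oxidase cluster (bottom), each gene by its brightest probe set, with tim-MJD left of WT. Symbols are replicates, coloured lines are group means and grey bars are the highest negative control. AOX1 is far higher in tim-MJD, se is lower on 2 tim-MJD arrays, and AOX2 and AOX4 lie under the grey bars.

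Transporters of the ABCG family related to st and bw, 11 genes in the list, gave 1 call among 9 tested. The share over all tested probe sets was 2.48%. CG17646 read 120, 134 and 96.2 in tim-MJD heads, against 279, 314 and 212 in WT heads. It fell by 0.96 log2 units (SE 0.11, adjusted p = 0.0195 in limma), and it did not pass without any 1 of tim-MJD replicate 1, WT replicate 1 or WT replicate 2 (adjusted p up to 0.0794). It passed with 11 of the 16 other settings. A second CG17646 probe set differed by 0.14, so the 2 probe sets of the gene disagree. The largest difference of the list was that of Atet, higher in tim-MJD by 1.18 ± 0.37 (SE, adjusted p = 0.211 in limma), without overlap. The median of the list was -0.26, with 5 of 9 genes negative and 4 positive.

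The genes whose log2 levels followed each pterin gene most closely were taken by Pearson correlation over the 6 arrays, among 7408 tested probe sets of other named genes. Arrays of 2 groups enter these correlations, which are descriptions. For Pu they were Fatp, a fatty acid transport protein (r = 0.992), and pdgy, an acyl-CoA synthetase (r = 0.990), which differed by -1.93 ± 0.51 and -0.58 ± 0.20. For se they were CG14823 (r = 0.989) and CG10560 (r = 0.984), which differed by -0.91 ± 0.29 and -1.08 ± 0.33. None of the 4 passed in limma with all arrays, and Fatp without WT replicate 3 and CG14823 without tim-MJD replicate 1 did (adjusted p = 0.0419 and 0.04). With the 18S signal as a covariate Fatp differed by -0.75 and pdgy by -0.22, and within module 1 CG14823 differed by -0.11 and CG10560 by -0.099. For pr they were Pino and fws (r = 0.986 and 0.973), for ry psh and PGAP2 (r = 0.967 and 0.962), and for bw CG8260 and twe (r = 0.983 and 0.964), both at control level. The ommochrome genes were all at control level themselves. Their closest genes were CG17650 and spir for cn (r = 0.991 and 0.989) and CG4318 and CG18132 for st (0.994 and 0.986). For cd they were Dhit and CG2924 (r = 0.997 and 0.991). Probe sets at control level thus reached r as high as those of Pu and se, so such values do not show shared regulation.

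Markers of other cell types gave no further call. The 5 of 6 hemocyte markers with a probe set had a median difference of -0.056 and summed intensities of 310 to 485 in tim-MJD and 292 to 404 in WT. The 4 of 5 glial markers had a median of -0.52 and sums of 3687 to 6371 in tim-MJD and 7908 to 20322 in WT. Of these Gs2, glutamine synthetase, differed by -1.42 ± 0.39 and alrm, an astrocyte gene, by -0.90 ± 0.17 (adjusted p = 0.153 and 0.0719 in limma), without overlap between groups. The sum is mostly Gs2. The other 2, moody and repo, differed by 0.50 ± 0.26 and -0.13 ± 0.11 and were at control level on most arrays. The 3 of 5 neuronal markers had a median of 0.071 and sums of 704 to 1343 in tim-MJD and 400.2 to 508 in WT. These sums are mostly nSyb, a synaptic vesicle protein gene, which differed by 1.63 ± 0.29 (adjusted p = 0.0578 in limma). The genes elav and brp differed by 0.037 and 0.071. The 4 of 6 muscle markers had a median of -0.14 and sums of 8524 to 16188 in tim-MJD and 12482 to 15925 in WT, with TpnC41C, a troponin C, at -0.91 ± 0.15 (adjusted p = 0.0536) and up, troponin T, at 0.55 ± 0.24 (adjusted p = 0.365), both without overlap after normalization. The part of these cell types in the pterin values was not tested.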

How the data were processed

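Head RNA was measured on Affymetrix DrosGenome1 arrays, as the instrument files state. The authors deposited 1 linear intensity for each probe set, and how it was summarised, background-corrected or normalized is not stated. Highest values of 2141110 to 2888300 exceed a 16-bit scan. Of 14010 probe sets 44 controls were left out, and 12443 carried a single gene in the platform annotation. No genome build is named, so no coordinates are given.

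Values were quantile normalized as log2(intensity + 16), the lowest 40% of probe sets by mean were left out, and tim-MJD was compared with WT in limma 3.58.1 (R 4.3.3; lmFit, eBayes, two-sided, Benjamini-Hochberg over 8379 probe sets, threshold 0.05). The procedure was tested on simulated data of independent values, without array, scan day or RNA quality effects, so that test does not cover those. A gene with several probe sets stands by its brightest in lists.

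Members, lists and tests were chosen with earlier results of these data known. Named were all members; of other lists the genes past the threshold or, if none, the smallest p; relatives of se and ry; and the 2 genes most correlated with each member. Other genes were named after their values were seen. Deviations of arrays from their group mean, which depend on each other within a group, correlated at 0.286, 0.050 and 0.300 for equal numbers. For different numbers the range was -0.314 to 0.112, and WT replicate 2 correlated best with tim-MJD replicate 1 (0.112). These values are thus no reason against pairing. Replicate numbers were still not taken as pairs in the main analysis, because no label says that equal numbers belong together. A fit with the replicate number as a block is among the alternatives. Alternatives covered pseudocount, normalization, filter, variance model, blocks, covariates and single arrays. Figures used matplotlib 3.10.9 and pandas 2.3.3 in Python 3.11.15.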

Additional observations from a re-analysis of the deposited data

How the results depend on the processing

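No pigment probe set passed the threshold under any of the 16 other settings tested or with any 1 array left out (0 of them each time in limma, with 2 at an unadjusted p under 0.05 in the analysis as reported). The Pu difference was negative in all of these, from -1.90 to -0.43 over 18 settings. That of se was negative in all but within module 1 (0.13). Changes of the filter, the variance model or the replicate block leave the difference itself as it is. Those settings therefore say nothing about its sign. Probe sets called over the whole table numbered 208 as reported, 122 with median centring, 102 without the filter, 387 with 60% left out, 42 without moderated variances, 90 with the 3' to 5' covariate, 37 with the 18S covariate, 0 with the fluidics module as a block (980 at an unadjusted p under 0.05) and 88 to 200 with 1 array left out. With the replicate block 84 passed, and 5 of 6 arrays correlated best with their own number, which is a hint from the data only. The ommochrome median was -0.065 within module 2 and -0.021 to 0.021 with 1 array left out. The pterin median was -0.74 within module 2 and -0.39 to 0.062 with 1 array left out. Signs turned for bw without normalization (-0.034), with median centring (-0.055) or cyclic loess (-0.0016), the module block (-0.032) and within module 2 (-0.28), and from -0.12 to 0.19 without 1 array; for ry within module 1 (0.15) and from -0.12 to 0.075 without 1 array; for pr within module 1 (0.088) and from -0.39 to 0.062 without 1 array; and for Sptr with the 18S covariate (0.025). The cause was not tested. No value for w could be given, and no level below control could be resolved.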
